A study of Homo sapiens with 42 samples.

Results

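The 10 genes described here are autosomal germline genes, namely DAZL, DDX4, MAEL, TDRD1, SLC25A31, SYCP3, SYCE2, STAG3, SMC1B and HORMAD1. They were taken by name from 20033 protein-coding genes on the standard chromosomes of GENCODE v44, in the genome build hg38, and each was read within 1500 bp of its transcription start site (TSS) and over its gene body. All 10 promoters overlap a CpG island, as do 14601 of all promoters. The genes are known for promoters that carry DNA methylation in somatic tissues, but no methylation data were analysed here, so whether these promoters were methylated in the lines below was not tested.

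Chromatin immunoprecipitation followed by sequencing (ChIP-seq) was performed in a pair of non-small cell lung cancer lines. NCI-H661 (H661) is a large cell lung carcinoma line with endogenous DPPA2 and DPPA4, which are partner proteins of early embryos and germ cells, and it was profiled as untreated parental cells. NCI-H1299 (H1299) carries stable inducible FLAG-DPPA2 and V5-DPPA4 transgenes, and it received doxycycline at 2 µg/mL (DOX) or water (CTRL) for 7 days, so that both H1299 groups held the transgenes. In H661, DPPA2 and DPPA4 (2 libraries each), KDM2A and SUZ12 (1 library each) and 6 histone marks (H3K27ac, H3K4me1, H2AK119ub, H3K36me2, H3K36me3 and H3K9me3, 2 libraries each) were measured. In H1299, the same marks other than H3K36me2 were measured in 2 DOX and 2 CTRL libraries each. The labels do not say that replicates were separate cultures, so p-values measure the spread between these libraries, which may be technical.

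The 38 ChIP libraries came with 44 deposited lists of enriched regions, and these lists, rather than read coverage, are the measurement throughout. An island is a run of enriched 100 bp bins called against input by EPIC2, and a narrow peak is a MACS2 call, which exists only for DPPA2, DPPA4, KDM2A and SUZ12. An island or narrow peak was kept when it passed the study's own filter, a log2 fold over input above 1 and a false discovery rate below 0.05, and a promoter was counted as carrying a mark when both replicates had a kept island within 1500 bp of the TSS. The libraries held 30041 to 127865 kept islands in H661, with 488201 to 6961886 reads in them, and 12301 to 103384 kept islands in H1299, with 137991 to 3657645 reads. The smallest kept island of a library held 6 to 13 reads, so a promoter without an island may still hold reads. The share of cells that carry a mark and the amount of it in each cell cannot be told apart in bulk libraries.

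The labels of the lines were checked at marker promoters. H3K27ac lay at 4 of 4 active control promoters in H661 and in DOX and at 3 of 4 in CTRL, and at none of 3 late male germ cell genes in any group. The promoters of DPPA2 and DPPA4 themselves carried H3K27ac in H661 and in neither H1299 group, which does not check the transgenes, since those lie elsewhere in the genome.

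As background, germline genes of this class have CpG-rich promoters that are silenced by DNA methylation in the embryo and reopen in primordial germ cells. In mouse embryonic stem cells the PRC1.6 complex, with E2F6 binding a TCCCGC motif and MGA with its partner MAX binding a CACGTG E-box, is known to occupy many of them and to place H2AK119ub. H3K27ac marks active promoters and enhancers, H3K4me1 marks enhancers and promoter flanks, H3K36me3 marks the bodies of transcribed genes, and H3K9me3 and the SUZ12-containing PRC2 complex mark repressed chromatin.

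The sequences below show the CpGs of some of these promoters, from members with and without islands. The promoter windows are from RefSeq on GRCh38.p14, running from 250 bases before to 50 bases after the RefSeq TSS, 5′ to 3′ on the gene's strand, and capitals mark each CpG dinucleotide. RefSeq windows matched 9 of the 10 genes by symbol, and HORMAD1 has none here. The windows of DDX4 and MAEL belong to other start sites than the GENCODE TSS used for the islands and are not shown. The DAZL window (chr3:16605374-16605673, minus strand) holds 33 CpGs, the SMC1B window (chr22:45413550-45413849, minus strand) 34, the SYCE2 window (chr19:12919244-12919543, minus strand) 37 and the SLC25A31 window (chr4:127730150-127730449, plus strand) 28.
DAZL: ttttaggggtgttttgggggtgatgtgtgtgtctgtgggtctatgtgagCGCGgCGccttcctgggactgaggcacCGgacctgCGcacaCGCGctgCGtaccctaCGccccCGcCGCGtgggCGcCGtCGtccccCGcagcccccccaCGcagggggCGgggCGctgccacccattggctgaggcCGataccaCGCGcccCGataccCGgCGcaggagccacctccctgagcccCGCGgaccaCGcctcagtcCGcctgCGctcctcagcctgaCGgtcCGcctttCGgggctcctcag
SMC1B: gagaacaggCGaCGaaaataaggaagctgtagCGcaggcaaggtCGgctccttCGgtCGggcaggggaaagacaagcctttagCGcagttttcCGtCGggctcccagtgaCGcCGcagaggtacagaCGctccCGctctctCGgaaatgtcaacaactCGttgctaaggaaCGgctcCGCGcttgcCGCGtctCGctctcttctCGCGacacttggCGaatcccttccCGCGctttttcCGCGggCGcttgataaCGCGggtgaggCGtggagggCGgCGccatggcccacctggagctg
SYCE2: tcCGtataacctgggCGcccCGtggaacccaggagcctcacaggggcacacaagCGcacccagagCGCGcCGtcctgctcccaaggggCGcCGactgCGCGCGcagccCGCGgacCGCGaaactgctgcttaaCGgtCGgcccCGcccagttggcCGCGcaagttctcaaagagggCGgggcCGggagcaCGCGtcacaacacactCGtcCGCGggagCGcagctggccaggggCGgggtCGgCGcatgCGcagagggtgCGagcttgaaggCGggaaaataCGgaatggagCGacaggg
SLC25A31: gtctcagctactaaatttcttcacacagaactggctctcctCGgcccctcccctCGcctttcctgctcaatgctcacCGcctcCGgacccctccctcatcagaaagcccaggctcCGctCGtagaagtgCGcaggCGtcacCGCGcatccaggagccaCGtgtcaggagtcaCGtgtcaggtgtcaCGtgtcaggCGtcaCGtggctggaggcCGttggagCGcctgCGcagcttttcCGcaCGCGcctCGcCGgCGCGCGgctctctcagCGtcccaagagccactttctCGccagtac

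In the 5 windows that hold the TSS used for the islands (DAZL, SYCP3, SYCE2, SMC1B and SLC25A31), CpG counts ran from 24 in SYCP3 to 37 in SYCE2, against a median of 13 over 27305 RefSeq promoters and of 22 over 15345 protein-coding ones. The RefSeq start sites of STAG3 and TDRD1 lie 194 and 66 bp from the TSS used for the islands, and their windows hold 20 and 17 CpGs. The E-box CACGTG (either strand) was found in SLC25A31, TDRD1 and STAG3. SLC25A31 held 4 copies, starting at -94, -80, -66 and -52 with the RefSeq TSS as 1, and TDRD1 held 2, at -65 and -45. Over all windows, 7.28% held this hexamer, and 8.55% of the protein-coding ones. The E2F hexamer TCCCGC (either strand) was found in SYCE2, SMC1B, SYCP3 and STAG3, at -39 and 22 in SYCE2 and at -120 and -25 in SMC1B, and 26.4% of all windows and 34.7% of the protein-coding ones held it. No E-box overlapped an E2F hexamer in these windows. These are matches of letters only.

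The first comparison asks whether endogenous DPPA2 and DPPA4 lay at these promoters in H661. A DPPA2/4 consensus peak, a narrow peak overlapping by over 25% in all 4 libraries, lay at 1 of the 10 promoters, that of SYCE2, which encodes a protein of the central element of the synaptonemal complex. Over all promoters 25% had such a peak, as did 33.2% of CpG island promoters. Occupancy by either protein taken alone was wider, as 42% of all promoters had a narrow peak in both DPPA2 libraries and 35.8% in both DPPA4 libraries, and SYCE2 was the single member in either set.

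At SYCE2 the narrow peaks had fold enrichments over input of 6.85 and 4.96 for DPPA2 (replicates 1 and 3) and of 7.56 and 4.48 for DPPA4 (replicates 2 and 3). All 4 lay upstream of the TSS, and the stretch that they share ran from -645 to -416 bp. Part of the sequence that they share has other exact copies in hg38 (6 of 19 windows of 50 bases), with up to 8253 copies of a window. In the SYCE2 promoter sequence shown above, which holds no part of that stretch, 26 of 26 such windows had 1 copy. The methods give default alignment settings and do not say whether reads with several matches were removed. The SYCE2 peak was kept when any of the 4 libraries was left out, and was lost when an overlap of over 50% was required, because the replicate 1 DPPA2 peak was narrower than the others.

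The other members had at most partial occupancy. STAG3, which encodes the meiosis-specific cohesin subunit, had narrow peaks in DPPA2 replicate 3 (3.11-fold) and DPPA4 replicate 2 (5.69-fold) and in neither other library. SMC1B, the meiotic SMC subunit of cohesin, had 2 narrow peaks in DPPA2 replicate 1 only, at 5.80-fold and 5.49-fold. Both SMC1B and SYCE2 had kept EPIC2 islands in all 4 libraries. With islands in place of narrow peaks, the consensus lay at SMC1B and not at SYCE2, and at 9451 of the 20033 promoters. The SYCE2 island was 700 bp wide in DPPA2 replicate 1 and 4900 bp in replicate 3, short of the overlap required. TDRD1 (9.04-fold), HORMAD1 (5.92-fold), DDX4 (5.11-fold) and DAZL (3.95-fold) had a narrow peak in DPPA2 replicate 1 alone. That library's list was the longest, with 69810 kept narrow peaks against 26349 to 30497 in the other 3, and the part of its length in these single calls was not tested. The share of all promoters with a peak in that library was not computed. It is at least the 42% found for both DPPA2 libraries, so these single calls are not set apart from other promoters. MAEL, SLC25A31 and SYCP3 had no narrow peak at the promoter in any library.

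KDM2A, a CpG-binding H3K36 demethylase, and SUZ12, a core subunit of PRC2, were each measured in 1 library, so no replicate check exists for them. Neither had a narrow peak at any of the 10 promoters, whereas 10.5% of all promoters had one for KDM2A and 15.6% for SUZ12. KDM2A islands of 11 reads at STAG3 and 9 reads at SMC1B were deposited. SUZ12 islands lay within the gene bodies of DAZL (7 islands), TDRD1 (5 islands) and MAEL (1 island, with 1 narrow peak) but not within 1500 bp of their TSSs. The annotated bodies of DAZL and MAEL reach 64883 and 13698 bp upstream of the TSS used. On which side of it these islands lie was not tested. The SUZ12 library held 57126 kept islands in all. The share of all genes with one in the body was not computed, so these counts have no background beside them.

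**Figure D1:**
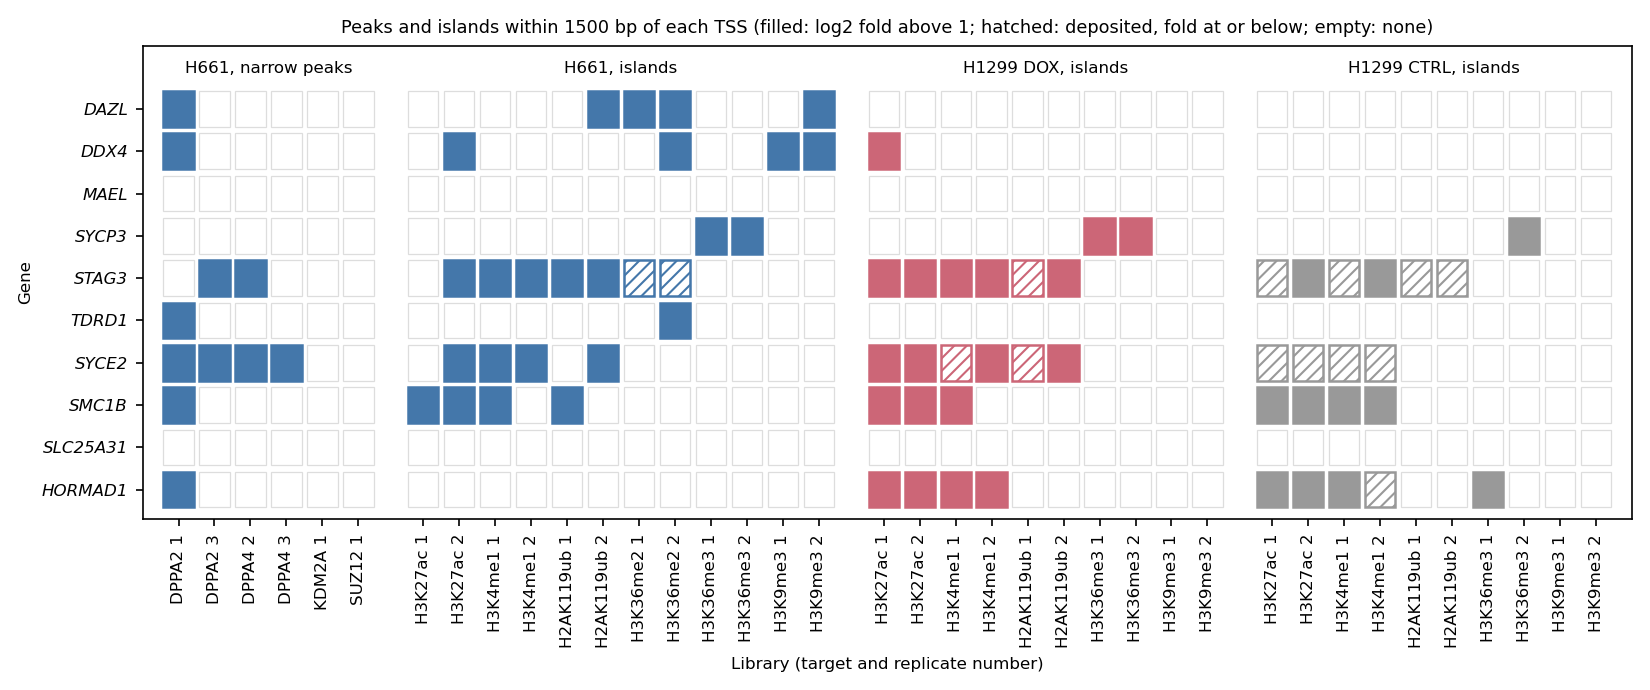
Each row is a germline gene and each column a library, grouped by line and target, and the fill shows whether the promoter (TSS plus or minus 1500 bp) had a kept island or narrow peak, a deposited one below the fold filter, or none. The rows of MAEL and SLC25A31 are empty, and HORMAD1 has kept histone mark islands in 4 of 10 DOX and 4 of 10 CTRL libraries and in none of 12 H661 libraries.

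The second comparison describes the histone marks of untreated H661. Each mark was present in both replicates at 1 or 2 of the 10 promoters, and it was a different gene for most marks, with 7 combinations of gene and mark in all. The active mark H3K27ac lay at SMC1B alone, against 58.1% of all promoters and 74.4% of CpG island promoters. H3K4me1 lay at STAG3 and SYCE2, against 29.6% of all promoters. H2AK119ub lay in the STAG3 window alone, against 24.3%. The islands there in both libraries ran from -2717 to -718 bp and from -2617 to -818 bp. Both lay beyond the TSS of the divergent gene GPC2 at -537 bp, on the GPC2 side. An island on the STAG3 side, from 1283 to 2282 bp, was in replicate 2 only. H3K36me2 lay at DAZL (5.49% of all promoters), H3K36me3 at SYCP3 (7.17%) and H3K9me3 at DDX4 (4.14%).

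Outside the meiotic genes, DAZL, DDX4 and TDRD1 had islands in H661. DAZL, an RNA-binding protein needed for germ cell development, had H3K36me2 islands of 22 and 21 reads, which began at -377 and -177 bp and ran past the TSS. Its H3K9me3 island, of 23 reads, was in replicate 2 only, as was its H2AK119ub island, also of 23 reads. DDX4, the germ cell RNA helicase also called VASA, had H3K9me3 islands of 10 and 19 reads across the TSS. TDRD1, a Tudor domain protein that binds PIWI proteins in mouse, had 1 histone mark island, H3K36me2 of 31 reads in replicate 2. DDX4 also had an H3K27ac island of 18 reads in replicate 2 only. All of these islands held 31 reads or fewer, where the smallest kept islands of any library held 6 to 13.

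MAEL, a protein of the PIWI-interacting RNA pathway, and SLC25A31, the testis form of the mitochondrial ADP/ATP carrier, had no island or narrow peak within 1500 bp of the TSS in any of the 44 lists, below the filter or above it. In their promoters none of the marks measured in each line, and in H661 none of DPPA2, DPPA4, KDM2A and SUZ12, was detectable by these lists. Both promoters overlap a CpG island, as do those of the members that did have islands.

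The number of lists with an entry at the promoter differed widely among members. STAG3 had a deposited island or peak in 26 of 44 lists, SYCE2 in 22, SMC1B in 17 and HORMAD1 in 11, against 10 for DDX4, 7 for DAZL, 6 for SYCP3 and 5 for TDRD1. The TSS of STAG3 lies 537 bp from that of the divergent gene GPC2, and that of SMC1B lies 94 bp from that of the divergent gene RIBC2, so their promoter windows cannot be told apart from those of these neighbours.

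H3K27ac reads at the meiotic members were set side by side across the lines. Values below are RPM, the ChIP reads in the deposited islands of the promoter window scaled to 1000000 reads in all kept islands of that library. HORMAD1, a protein of the meiotic chromosome axis and a cancer-testis gene, had 56.5 and 58.2 RPM in DOX and 98.1 and 72.4 in CTRL, and no island in either H661 library. SMC1B had 21.7 and 19.2 in H661, 47.2 and 28.6 in DOX and 59.4 and 69.8 in CTRL. STAG3 had an island in 1 H661 library (3.81), 64.4 and 54.1 in DOX and 25.8 and 73.7 in CTRL. SYCE2 had an island in 1 H661 library (10.1), 37.1 and 28.6 in DOX and 38.7 and 35.5 in CTRL.

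By these values all 4 genes were lower in the H661 libraries than in any H1299 library, although the SMC1B difference did not pass the test given below. The size of the gap depended on the scaling. Scaled to the reads in the tested regions, SMC1B had 173 and 175 in H661 and 201 and 239 in CTRL, a smaller gap. DOX and CTRL overlapped at STAG3 and SYCE2, while at HORMAD1 and SMC1B both DOX values were below both CTRL values. Scaled to the reads in the tested regions, HORMAD1 had 210 and 174 in DOX and 250 and 186 in CTRL, which overlapped. The DOX replicate 1 library had 2777360 reads in kept islands, against 759619 to 979366 in the other DOX and both CTRL libraries and 2162089 and 6044278 in H661, and the part of these totals, by which each value is divided, in the differences was not tested. A permutation over 2 libraries against 2 cannot give an exact p below 1 in 3, so the difference was tested only where a region was fitted across all regions, below.

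**Figure D2:**
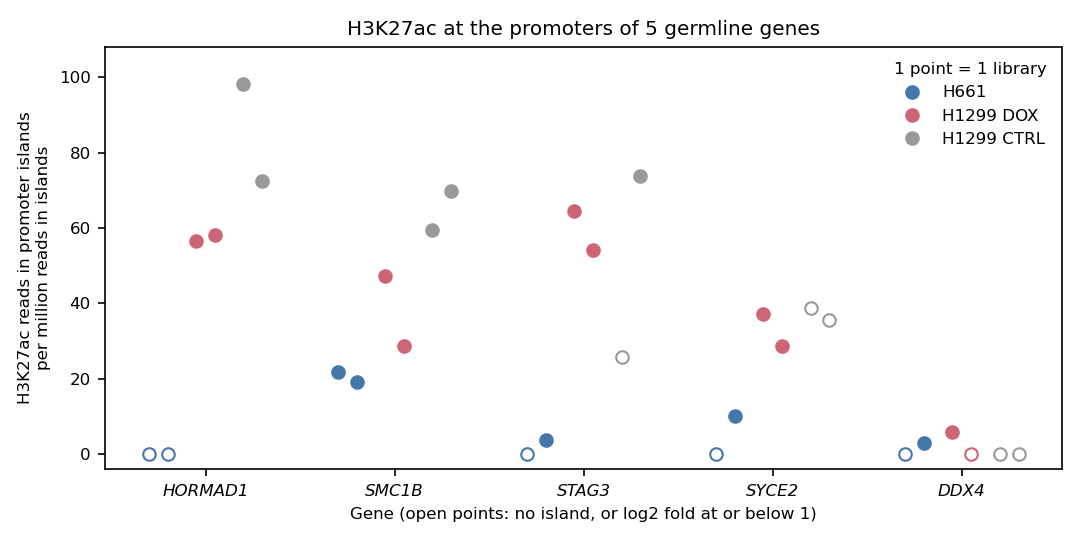
H3K27ac reads in deposited promoter islands, in RPM of the reads in all kept islands of the library, for the 5 germline genes with an island, with 1 point for each library of H661, DOX and CTRL. Open points are islands below the fold filter or, at 0, lists with no island there, which does not mean 0 reads; HORMAD1 has points between 56.5 and 98.1 in the 4 H1299 libraries and none above 0 in H661.

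The third comparison asks what doxycycline induction of DPPA2 and DPPA4 changed at these promoters in H1299. In DOX, H3K27ac lay at STAG3, SYCE2, SMC1B and HORMAD1, 4 of 10 (51.3% of all promoters), and in CTRL at SMC1B and HORMAD1, 2 of 10 (38.3%). H3K4me1 lay at STAG3 and HORMAD1 in DOX (43.9% of all promoters) and at SMC1B in CTRL (37.1%). H3K36me3 lay at SYCP3 in DOX (9.52%) and at no member in CTRL (7.37%). H2AK119ub lay at no member in DOX (11.6%) or CTRL (8.8%), and H3K9me3 at none in DOX (0.165%) or CTRL (0.19%). The share of members was below or near that of all promoters in each set.

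A stricter definition counted a promoter as gained when both DOX libraries and neither CTRL library had a kept island, and as lost in the opposite case. By it, 1 member gained 1 mark, SYCE2 with H3K27ac, and none lost one. Among all promoters 5.03% gained and 0.0799% lost H3K27ac, 3.23% gained and 1.12% lost H3K4me1, and 3.04% gained and 2.09% lost H2AK119ub. H3K36me3 was gained at 1.95% and lost at 0.729%, and H3K9me3 was gained at 0.0349% and lost at 0.0948%.

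The SYCE2 gain rests on the fold filter. Its H3K27ac islands had 103 and 28 reads in DOX and 30 and 27 reads in CTRL, with log2 folds over input of 1.71 and 1.9 in DOX and of 0.50 and 0.73 in CTRL. Islands were thus deposited in all 4 libraries, and without the fold filter SYCE2 was not gained for H3K27ac. With a log2 fold above 2, the gained members for H3K27ac were STAG3 and HORMAD1 in place of SYCE2, where 11.6% of all promoters gained it. HORMAD1 had log2 folds of 2.68 and 2.34 in DOX and of 1.10 and 1.17 in CTRL, with 157 and 57 reads in DOX and 76 and 55 reads in CTRL. The log2 folds thus differed between DOX and CTRL where the normalised reads were not higher in DOX, and each condition had its own single input library, whose part in the folds was not tested.

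H3K4me1 at STAG3 likewise had islands in all 4 libraries. Its promoter islands held 47.7 and 51.1 RPM in DOX and 55.2 and 62.3 in CTRL, and were kept in both DOX libraries and in 1 CTRL library. HORMAD1 had H3K4me1 islands of 17.1 and 32.3 RPM in DOX and 8.01 and 17.2 in CTRL. H2AK119ub at STAG3 was deposited in all 4 libraries, at 87.8 and 151 RPM in DOX and 126 and 92.8 in CTRL, and was kept in DOX replicate 2 alone. DAZL, MAEL, TDRD1 and SLC25A31 had no promoter island of any mark in any DOX or CTRL library, and DDX4 had 1, an H3K27ac island of 16 reads in DOX replicate 1.

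H3K36me3 over the gene body is a sign of transcription that did not depend on the promoter window. A body was counted as covered when kept islands spanned at least 25% of it in both replicates. No member was covered in H661 (18.5% of all genes), SYCP3, STAG3 and HORMAD1 were covered in DOX (22.7%), and STAG3 and HORMAD1 were covered in CTRL (17.2%). Genes covered over at least 25% in both CTRL libraries and in neither H661 library were 1.48% of all genes, 297 in number, and 2 members, STAG3 and HORMAD1, were among them. The opposite pattern, at least 25% in both H661 libraries and in neither CTRL library, held for 7.64% of all genes and no member.

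The HORMAD1 body (chr1:150698060-150720895) had H3K36me3 over 0% in both H661 libraries, 77.3% and 77.5% in DOX and 54.0% and 65.7% in CTRL. By gene length covered it stood above 96.2% and 96.5% of all genes in the DOX libraries and above 93.6% and 95.5% in the CTRL libraries. Both DOX values were above both CTRL values. In DOX, islands covered 59.8% and 47.5% of the first 25% of the body from the TSS and 77.2% and 85.3% of the last 25%. In CTRL, they covered 23.02% and 28.03% of the first 25% and 73.7% and 73.0% of the last 25%, so H3K36me3 was sparser next to the TSS in all 4 libraries. GOLPH3L, the next gene downstream on the same strand, had 21.99% and 1.96% in H661, 56.5% in both DOX libraries and 28.2% and 48.4% in CTRL.

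The STAG3 body (chr7:100177563-100214387) had H3K36me3 over 0% in both H661 libraries, 49.7% and 47.0% in DOX and 34.7% and 48.1% in CTRL, and DOX and CTRL overlapped. Of this body, 24.5% is shared with another annotated protein-coding gene, and in that part the marks of these genes cannot be told apart. In H661 the same body had H3K36me2 over 21.5% and 41.5%, with less in 97.6% and 90.3% of all genes. The GPC2 body next to it had H3K36me3 over 0% to 27.01% across the libraries.

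The SYCP3 body (chr12:101728648-101739472), which encodes an axial element protein of meiotic chromosomes, had H3K36me3 over 16.6% and 7.13% in H661, 36.5% and 36.03% in DOX and 15.3% and 30.5% in CTRL. All of this body lies within CHPT1, and the rest of CHPT1 had 12.4% and 0.902% in H661, 22.7% and 24.2% in DOX and 21.7% and 13.5% in CTRL. The marks of SYCP3 and CHPT1 cannot be told apart, and the promoter call of SYCP3 for H3K36me3 came from islands that lay mostly downstream of its TSS, inside CHPT1.

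SMC1B, DAZL, DDX4, MAEL, TDRD1 and SLC25A31 had no kept H3K36me3 island in their bodies in any library of either line, although the SMC1B promoter carried H3K27ac in both lines. SYCE2 had at most 1.95% of its body under kept islands in any library, while the part of GCDH outside SYCE2, which shares 75.2% of the SYCE2 body, had 69.3% and 28.8% in H661, 11.8% and 7.87% in DOX and 17.05% and 9.18% in CTRL. Of the 3452 genes covered in CTRL, 54.5% had higher cover in both DOX libraries than in both CTRL libraries, and of the 2 such members HORMAD1 did and STAG3 did not.

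**Figure D3:**
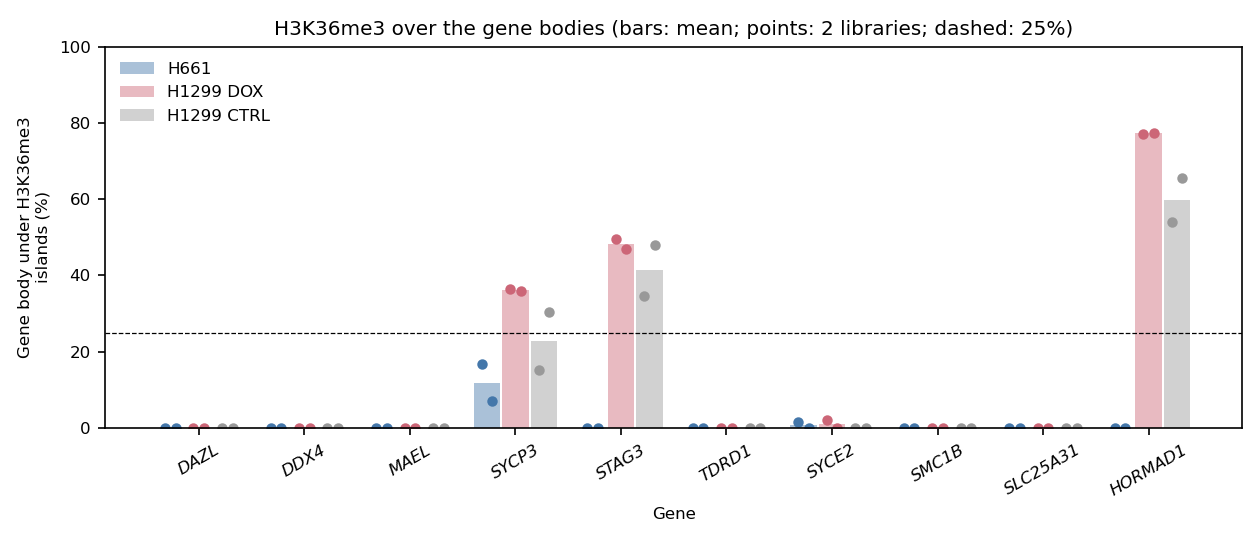
Percent of each germline gene's body covered by kept H3K36me3 islands, with 1 point for each library of H661, DOX and CTRL, bars at the mean of 2 libraries and a dashed line at the 25% used for calls. HORMAD1 lies at 77.3% and 77.5% in DOX, at 54.0% and 65.7% in CTRL and at 0% in H661, and STAG3 is likewise at 0% in both H661 libraries.

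**Figure D4:**
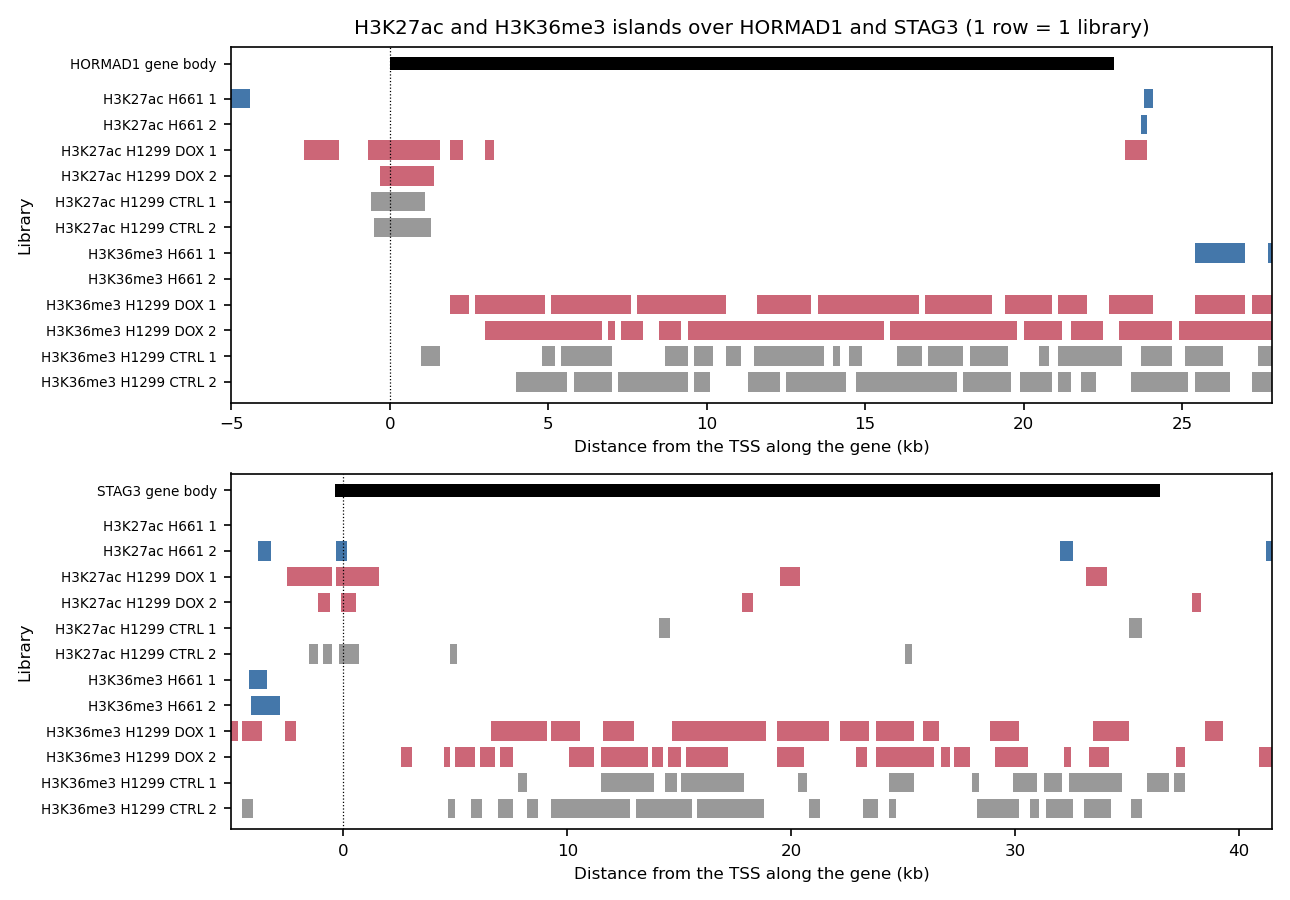
Kept H3K27ac and H3K36me3 islands over HORMAD1 (upper panel) and STAG3 (lower panel), 1 row for each library, with distance from the TSS in kb on the horizontal axis, transcription to the right and the gene body as a black bar. In all 4 H1299 libraries H3K36me3 islands run along both bodies, and in H661 the bodies have no H3K36me3 island.

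Reads were tested by edgeR where a region was covered by islands over at least 50% of its length in all 4 libraries of a comparison, since reads outside islands are not in the lists. Of 70978 joined H3K27ac regions of DOX and CTRL, 3436 passed, and regions with islands in 1 condition only could not. The scaling centres the changes near 0 (median log2 change -0.015 for H3K27ac), so a shift shared by most regions could not show. For DOX against CTRL, with the replicate number as a block, 0 of 3436 H3K27ac regions were called (0.0%), the call being a log2 change of at least 0.5 in size with adjusted p under 0.05, with 188 below an unadjusted p of 0.05 and 0 called by DESeq2. Of 7146 H3K36me3 regions, 15 were called (0.21%), 12 higher and 3 lower in DOX, and 0 by DESeq2. Of the members, 1 H3K27ac region and 3 H3K36me3 regions could be tested, and none was called.

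In these fits the values are RPM of the reads in the tested regions, scaled by TMM factors. The HORMAD1 promoter region (chr1:150719301-150721600, -705 to 1594 bp from the TSS) had 210 and 174 in DOX and 250 and 186 in CTRL for H3K27ac, a log2 change of -0.18 ± 0.23 (SE, 2 libraries a group, edgeR adjusted p = 0.996). The HORMAD1 body region (chr1:150687001-150718200), of which 64.6% lies in HORMAD1 and the rest extends over GOLPH3L, had 416 and 433 in DOX and 334 and 433 in CTRL for H3K36me3, a log2 change of 0.16 ± 0.12 (SE, edgeR adjusted p = 0.895). H3K36me3 cover of the HORMAD1 body was higher in both DOX libraries, and the difference in its reads did not pass the test.

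The STAG3 body region (chr7:100187201-100196800) had 113 and 105 in DOX and 95.0 and 158 in CTRL for H3K36me3, a log2 change of -0.19 ± 0.21 (SE, edgeR adjusted p = 0.967), and the CTRL libraries lay on either side of both DOX libraries. The SYCP3 region (chr12:101722501-101730000), of which 18.04% lies in SYCP3 and the rest in CHPT1 alone, had a log2 change of 0.23 ± 0.24 (SE, edgeR adjusted p = 0.959). With 2 libraries a group and standard errors of 0.12 to 0.24, changes of a size near these could not be told from none.

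Between lines, 3005 H3K27ac regions were tested for H661 against CTRL and 655 were called (21.8%), 303 higher and 352 lower in H661, against 361 called by DESeq2. The single member region was the SMC1B promoter (chr22:45412801-45414600, shared with RIBC2), with 173 and 175 RPM in H661 and 201 and 239 in CTRL. The log2 difference was -0.34 ± 0.25 (SE, edgeR adjusted p = 0.349), not past the threshold. HORMAD1, which had no H3K27ac island in H661, could not enter this test, since a region had to be covered in every library, and the lines also differ in more than DPPA2 and DPPA4.

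Other germline genes were read in the same way, in lists of genes chosen with earlier results of these data known. Of 49 genes in 4 lists, 20 (40.8%) had H3K27ac in both H661 libraries, 15 (30.6%) in both DOX libraries and 8 (16.3%) in both CTRL libraries, and 9 (18.4%) had a DPPA2/4 consensus peak in H661. Each of these shares over the 49 genes was below that of all promoters given above. Among 10 genes of the meiotic chromosome axis and synaptonemal complex, H3K27ac in H661 lay at 6, including SYCP2, SYCE3, TEX12, C14orf39 and RAD21L1, and 3 of the 10, SYCP2, RAD21L1 and HORMAD2, had a consensus peak, where 58.1% and 25% of all promoters did. Among 13 genes of meiotic recombination and entry it lay at 8, including SPO11, which makes the breaks that start recombination, DMC1, MEIOB, MSH4 and MSH5, so that both of these lists were near the share of all promoters. Among 16 genes of the PIWI-interacting RNA pathway it lay at 4, TDRD7, TDRKH, PLD6 and HENMT1, and among 10 germ cell regulators at 2, BOLL and ZP3.

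H3K9me3 in H661 lay at 11 of the 49 genes, or 22.4%, against 4.14% of all promoters, and at 1 of the 10 members, DDX4. Of the 11, 6 were in the PIWI-interacting RNA list, PIWIL1, TDRD5, TDRD6, TDRD12, MOV10L1 and ASZ1, which are named here after their values were seen. H3K36me3 covered the body of 3 of the 49 in H661, 6 in DOX and 5 in CTRL, or 6.12%, 12.2% and 10.2%, against 18.5%, 22.7% and 17.2% of all genes. Of 14 genes for proteins known to repress germline genes, among them MGA, E2F6, DNMT1 and SETDB1, 14 carried H3K27ac in H661 (58.1% of all promoters), 14 in DOX (51.3%) and 13 in CTRL, all but RNF2 (38.3%), and 8 had a DPPA2/4 consensus peak in H661 (25%). All 14 have a CpG island promoter.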

How the data were processed

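Single-end ChIP-seq reads were, per the methods and the submitters' processing notes, trimmed with Trim Galore 0.6.6, aligned to hg38 with BWA 0.7.13 and handled with SAMtools 1.9, Picard 2.6.0 and deepTools 3.5.0. A mouse spike-in was added in the H1299 treatment experiment. The methods give default alignment settings and do not say whether reads with several matches were removed. From 38 ChIP libraries and their 4 inputs the authors deposited 38 EPIC2 island lists and 6 MACS2 narrow peak lists. The EPIC2 lists hold counts of ChIP and input reads per island, a p-value and false discovery rate, a score and a log2 fold over input, all as the authors' caller gave them. The MACS2 lists hold the authors' fold enrichment, a linear ratio, with a score and −log10 p and q values. These lists carry no spike-in scaling, and the reads in islands are not the sequencing depth, which is unknown. Each H1299 condition had 1 input library, and chromatin was doubly crosslinked for DPPA2, DPPA4, KDM2A and SUZ12 and singly for histone marks.

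Promoters were TSSs of canonical transcripts in GENCODE v44 plus or minus 1500 bp. The consensus took narrow peaks of all 4 DPPA2 and DPPA4 libraries with over 25% reciprocal overlap. Islands of a comparison were joined into regions, and their deposited counts were tested with edgeR 4.0.16 (quasi-likelihood, TMM, Benjamini-Hochberg over all regions of a mark) in R 4.3.3, DOX against CTRL with the replicate number as a block, as in the study's methods. The scripts were tested on simulated data. Alternatives were other fold filters, promoter widths, start sites, overlaps and body cover, DESeq2 1.42.0, RLE factors, other designs and leaving out each library. Overlaps and plots used Python 3.11.15, numpy 2.4.6, pandas 2.3.3 and matplotlib 3.10.9. The genes named were all 10 members, their regions that entered a fit, close or overlapping neighbours, and up to 5 genes a list with a consensus peak or H3K27ac in H661. The members and lists were chosen with earlier results of these data known. With the fold filter, H3K4me1, H2AK119ub and H3K9me3 had no region over a member that entered a fit. Without it, 2 STAG3 H3K4me1 regions entered for DOX against CTRL, with log2 changes of 0.12 and -0.17, and neither was called. The sequence under the SYCE2 peaks is not reported here.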

Additional observations from a re-analysis of the deposited data

How the results depend on the processing

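The count of members with a DPPA2/4 consensus peak, 1, became 0 with an overlap of over 50%. The 7 combinations of gene and mark at H661 promoters became 3 with a log2 fold above 2 and 4 with a promoter of 500 bp on either side, and 9 to 15 when either replicate was used alone. The 3 in CTRL became 0 with a log2 fold above 2 and 9 with no fold filter, and 5 to 6 with either replicate alone. The 1 promoter gained in DOX became 2 with a log2 fold above 2, STAG3 and HORMAD1 for H3K27ac (11.6% of all promoters). With a promoter of 500 bp it became 3, SYCE2 for H3K27ac (5.74%) and STAG3 and HORMAD1 for H3K4me1 (4.27%). With no fold filter the single gain was SYCE2 for H2AK119ub (1.89%). Counts in DOX, of promoters lost and of covered bodies stayed within 1.5 times under the alternatives run. Whether a promoter counted as marked in H1299 thus changed with the fold filter, and the cause was not tested.

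No member region was called under any alternative, with edgeR or DESeq2 adjusted p-values from 0.0926 to 1.00 for DOX against CTRL and from 0.128 to 0.750 for H661 against CTRL. Leaving out a library left 1 in its group, which was then assumed to vary like the other group, and no block was used. The signs did change. The HORMAD1 H3K27ac log2 change ran from -0.36 to 0.077 as each library was left out, and was 0.077 without CTRL replicate 1. For H3K36me3 the HORMAD1 region ran from -0.024 (without CTRL replicate 1) to 0.35, the SYCP3 region from -0.023 (without DOX replicate 1) to 0.46 and the STAG3 region from -0.53 to 0.20 (without CTRL replicate 2). With counts per covered length the HORMAD1 H3K36me3 change was -0.22 and that of SYCP3 -0.18, where the median of all H3K36me3 regions moved to -0.14. The fits without the fold filter were added after seeing the data.

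The replicate numbers did not pair the samples by a label. Deviations of same-numbered libraries correlated at 0.26 for H3K27ac and 0.07 for H3K36me3 between DOX and CTRL, across regions, which are not independent replicates. With no replicate block 0 member regions were called, with log2 changes of -0.16 (HORMAD1 H3K27ac), 0.15 (HORMAD1 H3K36me3), 0.24 (SYCP3) and -0.22 (STAG3), and 3 of all H3K36me3 regions were called against 15 with the block. With a replicate block, H661 against CTRL gave 0 member regions and -0.35 at SMC1B. Over all regions the H3K36me3 count was 0 without DOX replicate 1, 2 without DOX replicate 2, 50 without CTRL replicate 1, 48 without CTRL replicate 2, 183 with no coverage minimum, 1 per covered length and 4 without the fold filter, the H3K27ac count was 9 without DOX replicate 2, 12 with no coverage minimum and 2 without the fold filter, and the H661 count was 420 to 718 as each library was left out and 1938 with no coverage minimum.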
